A study of Mus musculus with 12 samples.

Results

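The genes described here are 38 listed mouse genes of sterol and fatty acid synthesis, from the first step of the mevalonate pathway to cholesterol, and from cytosolic acetyl-CoA to long-chain polyunsaturated fatty acids, with the sensors that control both routes. They were listed by name, with earlier results of these data known, so the list is set beside all genes without a test. Of the 38, 33 had a probe that passed the detection filter (detection p under 0.05 on at least 4 of the 12 arrays) among 10785 genes tested in all. The representing probe of each of these 33 was detected on all 12 arrays, so none passed the filter through 1 group only. The filter removed Idi1 (isopentenyl diphosphate isomerase), detected on 3 arrays, all of them Neurosphere. It also removed Srebf1 (the transcription factor SREBP-1), detected on 1 BMP4 array, and Fdft1 (squalene synthase), detected on 0 arrays. Acat2 and Me1 are not analysed here.

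The RNA came from neural stem cells that were dissociated from subventricular brain tissue of CD1 mice on postnatal day 1 and grown as neurospheres, the floating clusters in which such cells divide, in medium with N2/B27 supplements and EGF. In the Neurosphere group the cells carried a control GFP retrovirus and were kept in EGF at 20 ng/ml until they were sorted for GFP and lysed. The LIF_NOG and BMP4 groups carried a GFAP-GFP retrovirus, were sorted for GFP, plated in medium with EGF lowered to 1 ng/ml, and harvested on day 7 as astrocytes. LIF_NOG cells received 20 ng/ml LIF (leukaemia inhibitory factor, a cytokine) and 250 ng/ml noggin, which blocks BMP signals. BMP4 cells received recombinant human BMP4 (bone morphogenetic protein 4) at 20 ng/ml. Cytokines were renewed on day 3 in both. Virus, EGF dose, plating and time in culture therefore differed from Neurosphere together with the cytokines, and the Gfap promoter that drove the reporter is itself active in astrocytes. Per the labels, BMP4 and LIF_NOG differ in the factors alone. Each group had 4 arrays, numbered 1 to 4. Whether a group's arrays stand for separate cultures is not in the labels, and its spread, on which every p-value rests, may be technical.

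Cholesterol is built in the cell from acetyl-CoA by way of mevalonate, farnesyl diphosphate, squalene and lanosterol. The SREBP transcription factors switch on the genes of this route and of fatty acid synthesis when membrane sterol is low, with SCAP as their escort and the INSIG proteins as the anchors that hold them back when sterol is plentiful. Little cholesterol crosses the blood-brain barrier, and astrocytes are known as a main source of the cholesterol and of the long-chain polyunsaturated fatty acids that neurons use.

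All levels below are log2 normalized intensities, and all differences are differences of such levels between group means with the moderated SE of limma (n = 4 arrays a group). A gene was called higher or lower at a limma adjusted p (Benjamini-Hochberg over all 10785 genes) under 0.05. Further probes of a gene were called at the same threshold in a separate fit, with p adjusted over 15356 probes. Between 38.6% and 42.0% of probes were detected per array, and the number of arrays limits the precision. The signal of Neurosphere 1 stood in another row order in the deposited raw table and was brought into line first. Arrays that share a row order in the authors' second deposited table, of processed values, were taken as a set. Set A held Neurosphere 2 to 4 with LIF_NOG 1 to 3, and set B all BMP4 arrays with Neurosphere 1 and LIF_NOG 4. By probe name, processed and raw values had a rank correlation of 0.014 for LIF_NOG 4, 0.0082 to 0.016 for BMP4 and 0.476 for Neurosphere 1. In set A it was 1. The sets are not labelled as batches, and BMP4 lies in set B alone. Of 15 astrocyte markers 11 (73.3%) were higher in LIF_NOG than in Neurosphere and 13 (86.7%) in BMP4. The shares of all genes were 16.6% and 26.6%. Gfap (an astrocyte filament protein) was detected on 1 Neurosphere array and on all LIF_NOG and BMP4 arrays. Its promoter drove the reporter used for sorting, so Gfap is no separate check of the label. S100b, among the 13, was detected on BMP4 arrays alone. In LIF_NOG 5 of 7 myelinating oligodendrocyte markers and Dcx, of migrating neuroblasts, were higher too. In RNA of a whole culture, fewer cells of a type and less RNA per cell cannot be told apart.

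Of the 15 sterol enzymes, 7 were lower in LIF_NOG than in Neurosphere and 8 did not pass. Of the 9 genes that lengthen, desaturate or activate fatty acids, 7 were higher in BMP4 than in Neurosphere, with Elovl6 lower and Scd2 not passing, and 6 were higher in BMP4 than in LIF_NOG. These higher shares were 77.8% and 66.7%, against 26.6% and 20.7% of all genes. In LIF_NOG against Neurosphere 12 of the 33 genes were lower and 1 was higher (Fads2), and 20 did not pass. Of all genes tested 33.1% were called in that comparison, 16.5% lower and 16.6% higher, against 36.4% lower and 3.03% higher of the 33. Higher genes made up 50.1% of all calls there, and 62.4% with arrays scaled to a common median. The median difference of the 33 genes was -0.52, against -0.01 for all genes, and 27 of the 33 differences were below 0. The 12 lower genes were Mvk, Mvd, Fdps, Lss, Cyp51, Tm7sf2, Nsdhl, Srebf2, Stard4, Acss2, Elovl2 and Elovl6.

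In BMP4 against Neurosphere 10 of the 33 were higher (Pmvk, Sc5d, Insig2, Scd1, Elovl1, Elovl2, Elovl5, Fads1, Fads2 and Acsbg1), 7 were lower (Mvk, Fdps, Lss, Ebp, Stard4, Acly and Elovl6) and 16 did not pass. These shares, 30.3% and 21.2%, lie near those of all genes, 26.6% higher and 27.7% lower (54.3% in all), and the median of 0.03 lies near the 0.00 of all genes, so the whole list did not stand apart in this comparison. Its branches had different counts. Of the 9 genes of elongation, desaturation and activation 7 (77.8%) were higher and 1 (11.1%) lower, with a median of 1.15. Of the 15 sterol enzymes 2 (13.3%) were higher and 4 (26.7%) lower, with a median of -0.30. The lower share of the sterol enzymes thus lay near the 27.7% of all genes. Both comparisons use the same Neurosphere arrays, so their values stand side by side without a test of likeness.

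In BMP4 against LIF_NOG, which share no arrays and were both kept in EGF at 1 ng/ml, 13 of the 33 were higher, 3 were lower and 17 did not pass. The shares were 39.4% and 9.09%, against 20.7% and 23.2% of all genes (43.9% in all), and the median was 0.49 against -0.00. The higher genes were Pmvk, Cyp51, Tm7sf2, Sc5d, Srebf2, Insig2, Acss2, Scd1, Elovl1, Elovl2, Elovl5, Fads2 and Acsbg1, and the lower ones Mvk, Ebp and Acly.

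**Figure D1:**
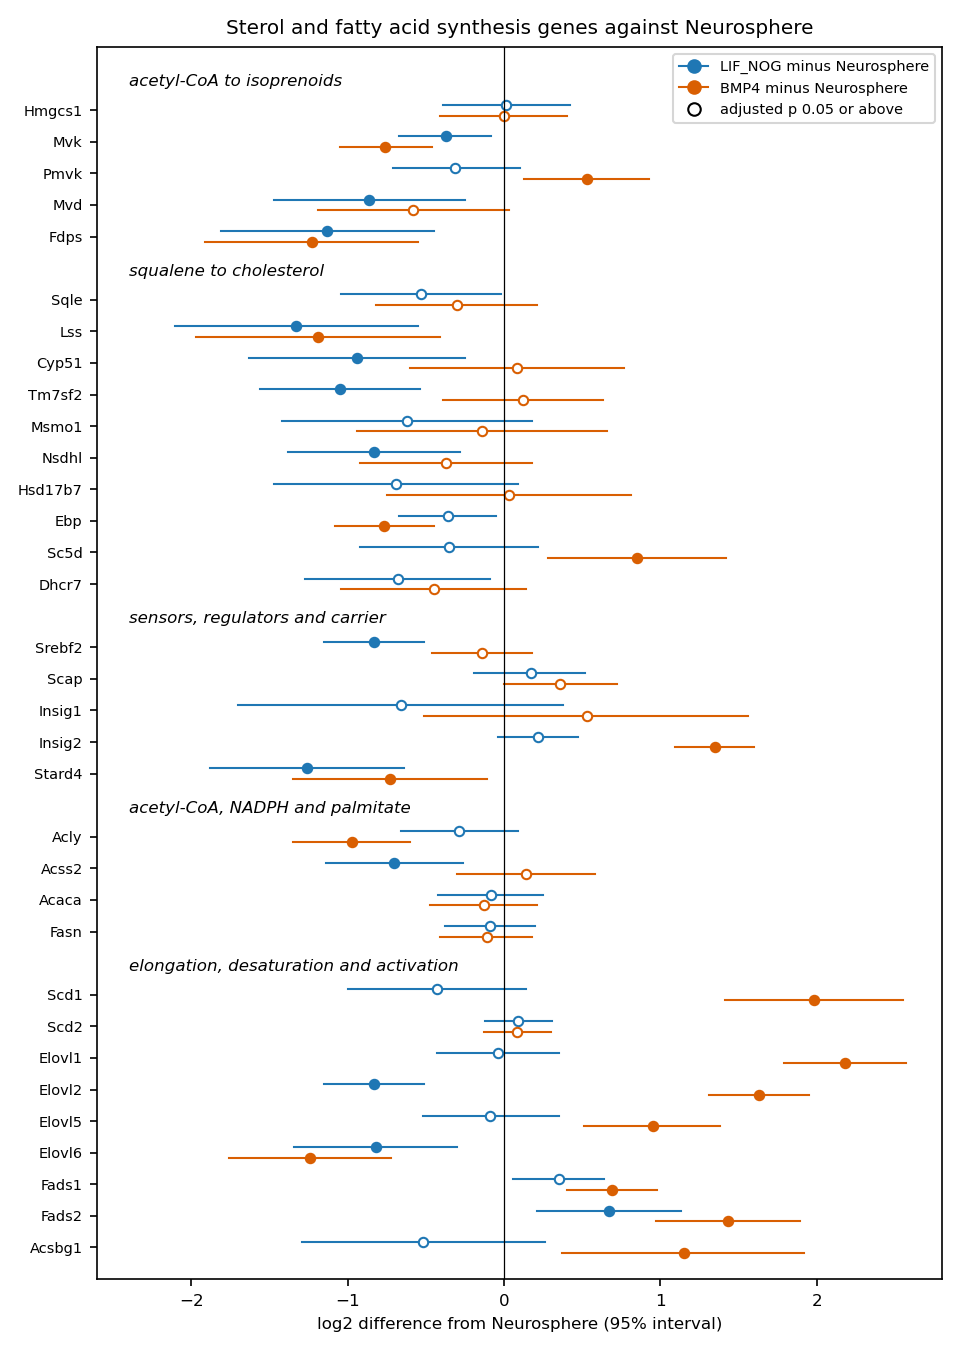
Log2 difference from Neurosphere (horizontal axis, with 95% interval) of the 33 genes, ordered by role, in LIF_NOG (blue) and BMP4 (orange); filled points passed the adjusted p threshold. In the lowest block, orange points for 7 of the 9 genes lie right of 0 and filled, while the blue points of the 10 genes from squalene to cholesterol all lie left of 0.

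The first enzymes of the route, which make isoprenoids from acetyl-CoA, did not move as 1 block. Hmgcs1 makes HMG-CoA, the substrate of the step that commits carbon to the route. Its level was 14.52, 14.44, 14.16 and 14.97 on the Neurosphere arrays, 14.66, 14.78, 14.66 and 14.05 on LIF_NOG and 14.62, 14.33, 14.50 and 14.63 on BMP4. The groups overlapped throughout, and LIF_NOG differed from Neurosphere by 0.01 ± 0.19 (adjusted p = 0.971, 95% interval -0.39 to 0.42). BMP4 differed by -0.00 ± 0.19 (interval -0.41 to 0.40). The gene lay at the 99.8th percentile of all genes in Neurosphere, near the highest level of the arrays (15.08).

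Fdps joins isoprenoid units to farnesyl diphosphate, the branch point to squalene, dolichol and prenylated proteins. Its level was 12.64, 12.61, 12.64 and 13.18 on Neurosphere, 11.47, 12.48, 11.91 and 10.67 on LIF_NOG and 11.91, 11.05, 11.30 and 11.88 on BMP4. Every treated array lay under every Neurosphere array. The gene was 2.19-fold lower in LIF_NOG (-1.13 ± 0.32, adjusted p = 0.014) and 2.34-fold lower in BMP4 (-1.23 ± 0.32, adjusted p = 0.00444). With row order as a block the BMP4 call was lost (-0.69, adjusted p = 0.157), as was the LIF_NOG call within set A (-0.85, adjusted p = 0.0727). A dimmer Fdps probe (mean level 5.51) differed by -1.81 and -2.27, in the same directions. It was detected on 6 of the 12 arrays only, so these differences rest in part on undetected levels.

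Mvk phosphorylates mevalonate. Its level ran from 6.81 to 7.26 on Neurosphere, from 6.44 to 6.89 on LIF_NOG and from 6.11 to 6.38 on BMP4, and the BMP4 arrays lay under all others. It was lower in BMP4 than in Neurosphere (-0.76 ± 0.14, adjusted p = 0.000287). The differences of -0.37 between LIF_NOG and Neurosphere (adjusted p = 0.0492) and of -0.38 between BMP4 and LIF_NOG (adjusted p = 0.0344) lay close to the threshold, and omitting single arrays moved their adjusted p up to 0.146 (without LIF_NOG 4) and 0.0924 (without BMP4 3). In all, 9 omissions ended the first call and 4 the second, for which LIF_NOG 2 or 3 or BMP4 2 also sufficed; the first held only without Neurosphere 1, LIF_NOG 2 or BMP4 4. A dimmer Mvk probe gave far larger differences from Neurosphere, of -1.83 in LIF_NOG and -2.27 in BMP4. Pmvk, the next kinase, went the other way in BMP4, at 8.17 to 8.96 against 7.52 to 7.99 in LIF_NOG (0.84 ± 0.19, adjusted p = 0.00246) with no overlap. Against Neurosphere its difference of 0.53 (adjusted p = 0.0278) did not pass without BMP4 4 (0.38, adjusted p = 0.0883) or without Neurosphere 1, 2 or 3 or BMP4 1. Mvd, which closes the mevalonate stage by decarboxylation, was lower in LIF_NOG by -0.86 ± 0.28 (adjusted p = 0.0324). LIF_NOG 2, at 7.69, lay among the Neurosphere arrays (7.39 to 8.09) and the other LIF_NOG arrays below them (6.37 to 6.78). Without LIF_NOG 4 the Mvd difference was -0.69 (adjusted p = 0.0996), and leaving out Neurosphere 3 or 4 or LIF_NOG 1 or 3 ended the call too.

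Of the 10 enzymes from squalene to cholesterol, 4 were lower in LIF_NOG than in Neurosphere and 6 did not pass. The share lower was 40%, against 16.5% of all genes. The calls of Lss and Tm7sf2 held on every omission of an array, and those of Cyp51 and Nsdhl did not. All 10 differences were below 0, with a median of -0.69 against -0.01 for all genes. Lss cyclizes squalene epoxide to lanosterol, the first sterol. Its level was 9.14, 8.87, 9.54 and 9.44 on Neurosphere, 7.86, 8.75, 7.81 and 7.28 on LIF_NOG and 8.37, 7.21, 7.63 and 9.02 on BMP4. All LIF_NOG arrays lay under all Neurosphere arrays, while BMP4 4 reached into the Neurosphere range. The gene was 2.51-fold lower in LIF_NOG (-1.33 ± 0.36, adjusted p = 0.0121) and 2.28-fold lower in BMP4 (-1.19 ± 0.36, adjusted p = 0.0121). With row order as a block the BMP4 difference was -0.82 (adjusted p = 0.187). A much dimmer Lss probe, detected on 7 arrays, differed by 0.15 and -0.01, neither of which passed.

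Tm7sf2 encodes a sterol C14 reductase that acts after lanosterol demethylation. Its level was 8.71, 8.71, 9.03 and 8.92 on Neurosphere, 7.95, 8.23, 7.88 and 7.10 on LIF_NOG and 9.55, 8.91, 8.58 and 8.81 on BMP4. LIF_NOG lay under both other groups with no overlap. The gene was 2.08-fold lower in LIF_NOG than in Neurosphere (-1.05 ± 0.24, adjusted p = 0.00403) and 2.26-fold higher in BMP4 than in LIF_NOG (1.17 ± 0.24, adjusted p = 0.00113). The difference of BMP4 from Neurosphere was 0.12 (interval -0.39 to 0.63). A second probe gave the same calls and was also higher in BMP4 than in Neurosphere (0.71, adjusted p = 0.00641).

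Cyp51 removes the C14 methyl group of lanosterol. On LIF_NOG it ran from 9.50 on array 4 to 11.43 on array 2, against 11.17 to 11.64 on Neurosphere and 10.96 to 11.76 on BMP4. LIF_NOG 2 lay inside the range of both other groups and the other LIF_NOG arrays under both. The gene was called lower in LIF_NOG than in Neurosphere (-0.94 ± 0.32, adjusted p = 0.0368) and higher in BMP4 than in LIF_NOG (1.02 ± 0.32, adjusted p = 0.0181). Leaving out LIF_NOG 2 moved the difference from Neurosphere to -1.29 (adjusted p = 0.000658), while leaving out LIF_NOG 4 moved it to -0.65 (adjusted p = 0.112). Leaving out any of the Neurosphere arrays, LIF_NOG 1 or LIF_NOG 3 also ended that call. The BMP4 call against LIF_NOG ended without LIF_NOG 3 or 4 or BMP4 1 or 4, at adjusted p of up to 0.056. A dimmer Cyp51 probe passed in BMP4 against LIF_NOG (1.10) but not in LIF_NOG against Neurosphere (-0.84).

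Nsdhl, which takes part in removing the C4 methyl groups, was lower in LIF_NOG (-0.83 ± 0.26, adjusted p = 0.0226), with LIF_NOG 2 at 12.55 among the Neurosphere arrays (12.46 to 12.92). Its call did not hold without LIF_NOG 4 (-0.58, adjusted p = 0.0668), LIF_NOG 1 or Neurosphere 3 or 4. Sqle, the epoxidase that sets the pace of the late route, differed by -0.53 and did not pass (adjusted p = 0.108). Nor did the C4 demethylation genes Msmo1 (-0.62) and Hsd17b7 (-0.69), or Dhcr7, the last enzyme of the route (-0.68, adjusted p = 0.0719). Hsd17b7 ran from 8.70 to 11.04 on LIF_NOG, the second widest range of any of the 33 genes in that group, against 10.25 to 10.42 on Neurosphere. Without LIF_NOG 2, Sqle (-0.70, adjusted p = 0.0247), Hsd17b7 (-1.15, adjusted p = 0.000619) and Dhcr7 (-0.93, adjusted p = 0.00642) passed. A dim Hsd17b7 probe was called lower in BMP4 (-1.16), where the brighter probe differed by 0.03, so the probes of this gene disagree.

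Ebp and Sc5d, which shift and introduce double bonds of the sterol ring, moved in opposite directions in BMP4. Ebp was at 8.38, 8.17, 8.30 and 8.70 on Neurosphere, 7.82, 8.05, 8.29 and 7.96 on LIF_NOG and 7.60, 7.39, 7.70 and 7.79 on BMP4. The BMP4 arrays lay under all others (-0.77 ± 0.15 from Neurosphere, adjusted p = 0.00046). Sc5d was at 7.14, 6.89, 7.44 and 7.09 on Neurosphere, 7.08, 7.27, 6.39 and 6.41 on LIF_NOG and 8.18, 7.44, 7.67 and 8.67 on BMP4. It was 1.8-fold higher in BMP4 than in Neurosphere (0.85 ± 0.26, adjusted p = 0.0139), where the groups meet at 7.44, and 2.3-fold higher than in LIF_NOG (1.20 ± 0.26, adjusted p = 0.00214). The Ebp difference between BMP4 and LIF_NOG (-0.41, adjusted p = 0.0355) was lost without LIF_NOG 3 (-0.32, adjusted p = 0.117), LIF_NOG 2, BMP4 1 or BMP4 2.

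**Figure D2:**
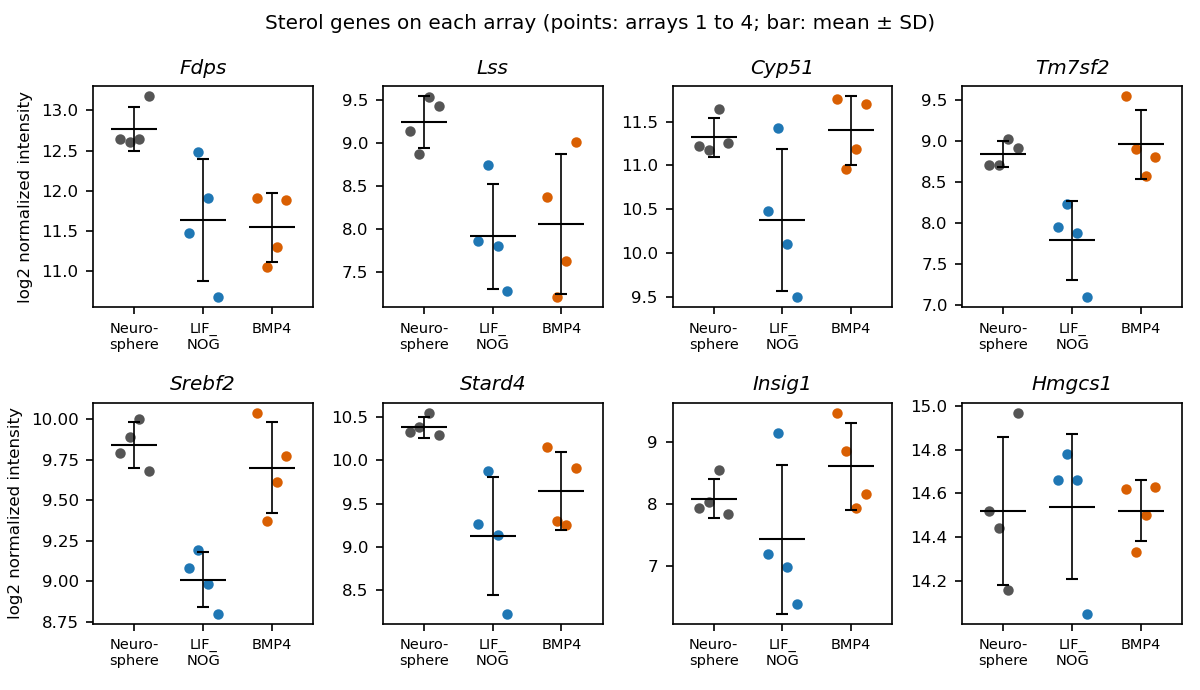
Log2 normalized intensity of 8 sterol genes on each array (points, arrays 1 to 4 from left to right in each group) with the group mean and SD (bars); each panel has its own vertical range. Fdps, Lss, Tm7sf2, Srebf2 and Stard4 have every LIF_NOG array under every Neurosphere array, and Insig1 on LIF_NOG runs from 6.38 to 9.15.

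Promoter windows of 300 bases (250 before to 50 after the start of a transcript, RefSeq, build GRCm38.p6) were at hand for 31 of the 38 genes. Both strands were searched for the sterol regulatory element TCACNCCAC, a form of the letters bound by SREBP. They were also searched for CCAAT, the box of NF-Y, a factor known to act with SREBP on sterol genes, which reads ATTGG on the other strand. CCAAT was in the windows of 25 of the 31 genes and in 61.9% of their 42 windows, against 37.4% of all 32851 windows. The sterol element in these letters was found only in Hmgcs1 (1 of 42 windows, 2.38%, against 1.24% of all). The GC box GGGCGG of Sp1 was in 71.4% against 35.7%, and CACGTG in 16.7% against 7.15%. Windows of one gene can overlap, and a match is a description of letters, not a site of binding. The windows of Hmgcs1 (chr13:119690101-119690400, plus strand), Lss (chr10:76531355-76531654, plus strand) and Tm7sf2 (chr19:6067801-6068100, minus strand) are shown because Hmgcs1 holds both motifs and did not pass in any comparison, while Lss and Tm7sf2 were among the genes with the largest decreases in LIF_NOG. Sequences read 5′ to 3′ along the gene, and capitals mark the sterol element and each CCAAT or ATTGG.
Hmgcs1: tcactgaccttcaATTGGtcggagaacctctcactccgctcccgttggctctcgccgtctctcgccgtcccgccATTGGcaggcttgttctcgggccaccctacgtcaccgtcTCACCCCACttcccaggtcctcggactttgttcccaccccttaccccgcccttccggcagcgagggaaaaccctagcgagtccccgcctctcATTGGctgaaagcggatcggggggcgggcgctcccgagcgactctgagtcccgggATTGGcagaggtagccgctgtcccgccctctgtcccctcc
Lss: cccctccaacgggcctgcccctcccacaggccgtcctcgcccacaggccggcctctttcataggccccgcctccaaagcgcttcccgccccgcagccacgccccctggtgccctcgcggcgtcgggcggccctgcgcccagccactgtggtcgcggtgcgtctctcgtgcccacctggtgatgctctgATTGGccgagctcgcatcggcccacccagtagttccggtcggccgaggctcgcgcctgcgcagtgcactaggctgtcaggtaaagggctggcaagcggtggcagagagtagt
Tm7sf2: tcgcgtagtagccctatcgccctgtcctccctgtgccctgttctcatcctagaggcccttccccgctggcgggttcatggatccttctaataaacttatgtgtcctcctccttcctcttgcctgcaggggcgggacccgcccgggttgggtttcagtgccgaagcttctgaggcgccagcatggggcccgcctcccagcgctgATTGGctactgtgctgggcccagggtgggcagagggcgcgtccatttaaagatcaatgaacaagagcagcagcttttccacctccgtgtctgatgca
In Hmgcs1 the sterol element starts 137 bases before the transcript start and 4 CCAAT boxes lie around it. Lss and Tm7sf2 hold 1 box each, starting 62 and 47 bases before the start.

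Among the regulators, Insig2 and the brightest probe of Srebf2 separated the treatments. Srebf2 encodes SREBP-2, the factor that mainly drives sterol genes. Its level was 9.79, 9.89, 10.00 and 9.68 on Neurosphere, 9.08, 9.19, 8.98 and 8.80 on LIF_NOG and 10.04, 9.37, 9.61 and 9.77 on BMP4. LIF_NOG lay under both other groups with no overlap, also on array 2. The gene was 1.78-fold lower in LIF_NOG than in Neurosphere (-0.83 ± 0.15, adjusted p = 0.000961), and in BMP4 1.61-fold higher than in LIF_NOG (0.69 ± 0.15, adjusted p = 0.00193). Its 3 probes agree in direction for LIF_NOG against Neurosphere, but of the dimmer probes 1 passed (-0.60) and 1 did not (-0.24). In BMP4 against LIF_NOG the former passed too (0.51), while the latter, detected on all 12 arrays, differed by 0.04 and did not. The Srebf2 probes thus disagree on the difference between the treatments.

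Insig2 encodes an anchor of the SCAP-SREBP complex in the endoplasmic reticulum. Its level was 7.03, 7.14, 7.13 and 7.42 on Neurosphere, 7.26, 7.40, 7.38 and 7.54 on LIF_NOG and 8.52, 8.59, 8.40 and 8.58 on BMP4. The BMP4 arrays lay close together and far above all others. The gene was 2.54-fold higher in BMP4 than in Neurosphere (1.35 ± 0.12, adjusted p = 3.96e-07) and 2.19-fold higher than in LIF_NOG (1.13 ± 0.12, adjusted p = 4.50e-06). A second probe agreed (1.53 and 1.26). Insig1, the other anchor and itself a target of SREBP, had the widest spread of the 33 genes in LIF_NOG, at 7.20, 9.15, 6.98 and 6.38, against 7.94, 8.03, 8.55 and 7.84 on Neurosphere and 9.48, 8.86, 7.94 and 8.17 on BMP4. It did not pass in any comparison (1.19 ± 0.48 between BMP4 and LIF_NOG, adjusted p = 0.061), and without LIF_NOG 2 that difference was 1.76 (adjusted p = 0.000423) and the one from Neurosphere -1.23 (adjusted p = 0.00651).

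Scap, the escort, did not pass against Neurosphere (0.17 in LIF_NOG and 0.36 in BMP4, adjusted p = 0.0835), and passed in BMP4 without Neurosphere 4 (0.46, adjusted p = 0.037), LIF_NOG 2 or BMP4 4. A dim Scap probe was called lower in both treatments (-0.64 and -0.62), so its probes disagree. Stard4 encodes a cytosolic sterol carrier and is a known SREBP target. Its level was 10.32, 10.38, 10.55 and 10.29 on Neurosphere, 9.26, 9.87, 9.14 and 8.23 on LIF_NOG and 10.15, 9.30, 9.25 and 9.91 on BMP4. All treated arrays lay under all Neurosphere arrays. It was 2.39-fold lower in LIF_NOG (-1.26 ± 0.29, adjusted p = 0.00444), on every omission of an array. In BMP4 the difference of -0.73 (adjusted p = 0.045) ended without any 1 of 8 arrays, at adjusted p of up to 0.129 without BMP4 3, and with row order as a block (-0.25, adjusted p = 0.6).

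The windows of Srebf2 (chr15:82147019-82147318, plus strand) and of 1 of 3 transcript starts of Insig2 (chr1:121332540-121332839, minus strand) are shown for these regulators, marked as above. They hold 1 and 3 CCAAT boxes.
Srebf2: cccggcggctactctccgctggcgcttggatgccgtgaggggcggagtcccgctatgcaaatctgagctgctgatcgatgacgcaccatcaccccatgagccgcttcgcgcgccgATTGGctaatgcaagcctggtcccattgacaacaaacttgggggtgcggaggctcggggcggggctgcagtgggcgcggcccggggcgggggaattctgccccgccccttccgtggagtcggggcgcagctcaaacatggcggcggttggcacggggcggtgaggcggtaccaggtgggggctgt
Insig2: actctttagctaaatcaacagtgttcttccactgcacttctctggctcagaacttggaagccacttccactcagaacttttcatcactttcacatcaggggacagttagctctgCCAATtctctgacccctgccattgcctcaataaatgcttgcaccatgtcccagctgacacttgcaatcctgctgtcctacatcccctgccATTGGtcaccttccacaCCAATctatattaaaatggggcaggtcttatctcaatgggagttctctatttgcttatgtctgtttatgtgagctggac
The Insig2 window with the most marked matches was taken, and its other windows hold no CCAAT in these letters.

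Of the 4 genes that supply acetyl-CoA and build palmitate, Acss2 was lower in LIF_NOG and Acly in BMP4 than in Neurosphere. Each made up 25% of the 4, against 16.5% of all genes lower in LIF_NOG and 27.7% in BMP4. Acaca and Fasn did not pass. Acly cleaves citrate to cytosolic acetyl-CoA. Its level was 12.07, 12.11, 12.19 and 12.26 on Neurosphere, 11.89, 11.87, 11.87 and 11.84 on LIF_NOG and 11.22, 10.83, 10.90 and 11.78 on BMP4. The groups did not overlap, in the order Neurosphere, LIF_NOG, BMP4, but the difference between LIF_NOG and Neurosphere did not pass (-0.29, adjusted p = 0.237). In BMP4 the gene was 1.97-fold lower than in Neurosphere (-0.97 ± 0.17, adjusted p = 0.000256) and 1.61-fold lower than in LIF_NOG (-0.69 ± 0.17, adjusted p = 0.00513), the latter with an adjusted p of 0.0603 with row order as a block. Acss2 makes acetyl-CoA from acetate. It ran from 9.91 to 10.57 on Neurosphere, from 9.04 to 9.92 on LIF_NOG and from 9.95 to 10.53 on BMP4. It was lower in LIF_NOG than in Neurosphere (-0.70 ± 0.21, adjusted p = 0.0184), a call that ended without LIF_NOG 4 (-0.55, adjusted p = 0.0622), Neurosphere 3 or Neurosphere 4, and higher in BMP4 than in LIF_NOG (0.84 ± 0.21, adjusted p = 0.0045). A dim Acss2 probe did not pass (0.00 in LIF_NOG against Neurosphere).

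Acaca, the carboxylase that makes malonyl-CoA, and Fasn, the synthase that makes palmitate, did not pass in any comparison. For Fasn the level was 11.90 to 12.24 on Neurosphere, 11.82 to 12.15 on LIF_NOG and 11.80 to 12.21 on BMP4. The 95% intervals of its differences from Neurosphere were -0.38 to 0.20 in LIF_NOG and -0.41 to 0.18 in BMP4. Those of Acaca were -0.42 to 0.25 and -0.47 to 0.21.

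The genes that act after palmitate held the largest differences of the 33, all of them in BMP4. Scd1 puts the first double bond into palmitate and stearate. Its level was 11.61, 11.55, 11.91 and 12.03 on Neurosphere, 11.44, 12.14, 11.38 and 10.42 on LIF_NOG and 13.64, 13.74, 13.79 and 13.85 on BMP4. All BMP4 arrays lay above all others. The gene was 3.95-fold higher in BMP4 than in Neurosphere (1.98 ± 0.26, adjusted p = 2.06e-05) and 5.33-fold higher than in LIF_NOG (2.41 ± 0.26, adjusted p = 7.10e-06). Scd2, the desaturase that prevails in the brain of mice, was at 14.72 to 14.94, 14.87 to 14.97 and 14.83 to 15.01, near the highest level of the arrays, and did not pass (0.08 in BMP4, interval -0.13 to 0.30).

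The elongases add carbon pairs to fatty acyl chains and differ in the chains they accept. Elovl1 acts on saturated and monounsaturated chains of very great length, as used in sphingolipids. Its level was 7.50, 7.46, 7.07 and 7.77 on Neurosphere, 7.24, 7.83, 7.27 and 7.32 on LIF_NOG and 9.61, 9.40, 9.53 and 9.99 on BMP4. LIF_NOG overlapped Neurosphere and BMP4 lay above both. The gene was 4.53-fold higher in BMP4 than in Neurosphere (2.18 ± 0.18, adjusted p = 2.73e-07) and 4.66-fold higher than in LIF_NOG (2.22 ± 0.18, adjusted p = 4.66e-07). The 2 dimmer Elovl1 probes gave 1.71 and 1.84 against Neurosphere.

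Elovl2 lengthens polyunsaturated chains on the way to docosahexaenoic acid. Its level was 6.08, 5.66, 5.84 and 6.39 on Neurosphere, 5.18, 5.36, 5.07 and 5.02 on LIF_NOG and 7.57, 7.71, 7.65 and 7.57 on BMP4. The groups did not overlap, and it alone of the 33 genes was called in opposite directions in the treatments against Neurosphere. It was 1.78-fold lower in LIF_NOG (-0.83 ± 0.15, adjusted p = 0.000936), 3.1-fold higher in BMP4 (1.63 ± 0.15, adjusted p = 6.15e-07) and 5.52-fold higher in BMP4 than in LIF_NOG (2.46 ± 0.15, adjusted p = 2.54e-08). Each of these calls held on every omission of an array. The LIF_NOG levels lay near the dim end of the arrays, where the offset of 16 added before the logarithm understates differences.

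Elovl5, which lengthens polyunsaturated chains before Elovl2, was at 11.86, 11.86, 12.33 and 12.14 on Neurosphere, 11.70, 12.46, 12.04 and 11.65 on LIF_NOG and 12.78, 12.81, 12.93 and 13.47 on BMP4. It was 1.93-fold higher in BMP4 than in Neurosphere (0.95 ± 0.20, adjusted p = 0.00111) and 2.05-fold higher than in LIF_NOG (1.03 ± 0.20, adjusted p = 0.000871), with no overlap. Elovl6, which lengthens palmitate to stearate, went the other way, at 9.81, 9.78, 9.76 and 9.93 on Neurosphere, 8.63, 9.72, 9.13 and 8.53 on LIF_NOG and 8.51, 8.30, 8.35 and 9.14 on BMP4. All treated arrays lay under all Neurosphere arrays. Elovl6 was 2.37-fold lower in BMP4 (-1.24 ± 0.24, adjusted p = 0.000547) and 1.77-fold lower in LIF_NOG (-0.82 ± 0.24, adjusted p = 0.0183). The LIF_NOG call ended without LIF_NOG 1 (-0.70, adjusted p = 0.0628) or LIF_NOG 4 (-0.66, adjusted p = 0.0612).

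Fads2 carries the first and Fads1 the later desaturation of polyunsaturated chains. Fads2 was at 8.65, 8.67, 9.05 and 8.72 on Neurosphere, 9.83, 9.30, 9.25 and 9.39 on LIF_NOG and 10.09, 9.82, 9.97 and 10.91 on BMP4. It was the sole gene of the 33 called higher in LIF_NOG (0.67 ± 0.22, adjusted p = 0.0281), above all Neurosphere arrays, but the call ended without LIF_NOG 1 (0.54, adjusted p = 0.094) or Neurosphere 1, 2 or 4. In BMP4 it was 2.69-fold higher than in Neurosphere (1.43 ± 0.22, adjusted p = 6.12e-05) and 1.69-fold higher than in LIF_NOG (0.76 ± 0.22, adjusted p = 0.0105). A second Fads2 probe was called in BMP4 (0.82) but not in LIF_NOG (0.32). Fads1 was at 13.27, 13.49, 13.60 and 13.59 on Neurosphere, 14.04, 13.72, 13.71 and 13.88 on LIF_NOG and 14.20, 13.88, 14.27 and 14.35 on BMP4. Both treatments lay above Neurosphere, by 0.69 ± 0.13 in BMP4 (adjusted p = 0.000586) and by 0.35 ± 0.13 in LIF_NOG, which did not pass (adjusted p = 0.0631). LIF_NOG passed without LIF_NOG 2 (0.39, adjusted p = 0.0462) or BMP4 2. A dim Fads1 probe pointed the other way (-0.28 in BMP4, not called, and -0.44 in LIF_NOG, adjusted p = 0.0419).

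Acsbg1 encodes an acyl-CoA synthetase that activates long and very long chains and is abundant in astrocytes. Its level was 8.48, 8.31, 7.93 and 8.09 on Neurosphere, 7.04, 9.04, 7.82 and 6.85 on LIF_NOG and 9.18, 9.27, 9.69 and 9.25 on BMP4. The BMP4 arrays lay above all others, and LIF_NOG 2 above all Neurosphere arrays. The gene was 2.21-fold higher in BMP4 than in Neurosphere (1.15 ± 0.36, adjusted p = 0.0147) and 3.16-fold higher than in LIF_NOG (1.66 ± 0.36, adjusted p = 0.0019). Against Neurosphere LIF_NOG did not pass (-0.52, adjusted p = 0.31), and without LIF_NOG 2 it did (-0.97, adjusted p = 0.00268).

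**Figure D3:**
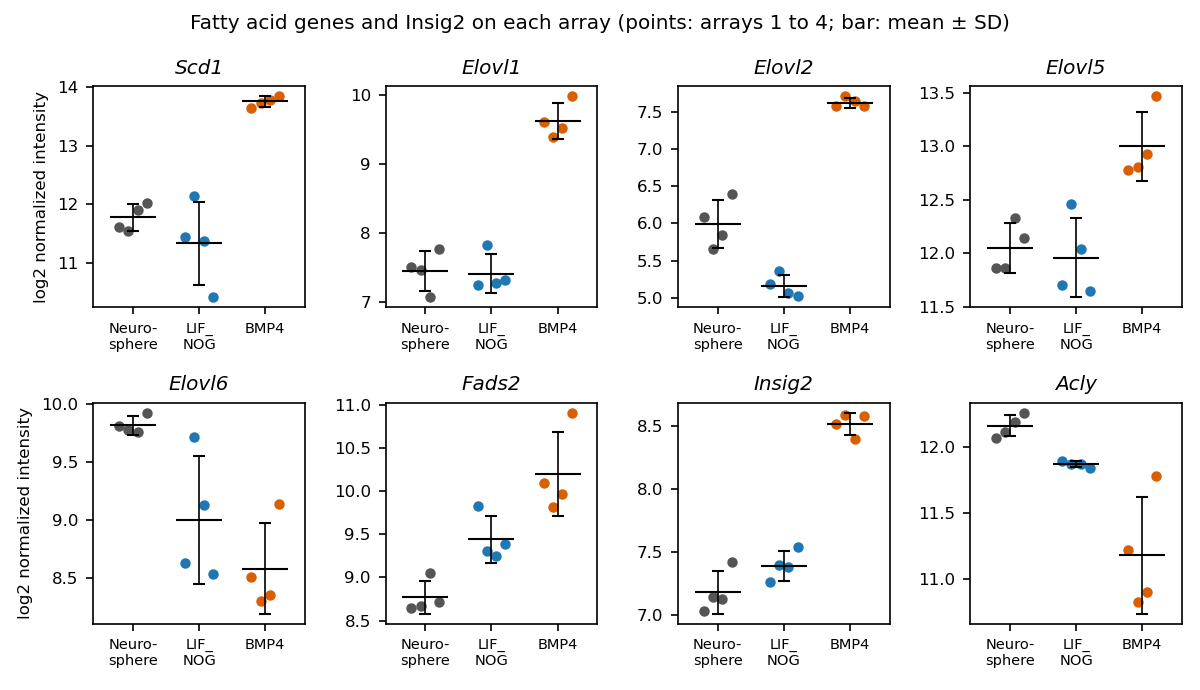
Log2 normalized intensity of 7 fatty acid genes and Insig2 on each array (points, arrays 1 to 4 from left to right in each group) with the group mean and SD (bars); each panel has its own vertical range. Scd1, Elovl1, Elovl2, Elovl5 and Insig2 have every BMP4 array above every other array, whereas Elovl6 and Acly have every BMP4 array under every Neurosphere array.

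Elovl1 had the largest difference of the 33 between BMP4 and Neurosphere, and 1 of its 2 promoter windows (chr4:118427843-118428142, plus strand, GRCm38.p6) is shown for that reason, with its CCAAT box in capitals. Of the 2 the window with the most marked matches was taken, and the other holds no CCAAT in these letters.
Elovl1: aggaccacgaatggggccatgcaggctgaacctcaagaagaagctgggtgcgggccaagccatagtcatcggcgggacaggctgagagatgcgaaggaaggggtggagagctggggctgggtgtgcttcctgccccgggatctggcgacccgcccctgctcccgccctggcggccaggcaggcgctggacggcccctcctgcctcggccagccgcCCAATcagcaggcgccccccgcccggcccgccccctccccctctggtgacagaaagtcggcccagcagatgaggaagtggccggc
The box starts 35 bases before the transcript start, and 5 GC boxes lie in the same window.

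Within each group the sterol enzymes varied from array to array, and mostly in the same order. The median SD within a group over the 15 sterol enzymes was 0.49 in LIF_NOG, 0.42 in BMP4 and 0.22 in Neurosphere, against 0.23, 0.21 and 0.17 over all genes. In LIF_NOG array 2 held the highest value for 14 of the 15 and array 4 the lowest for 11. In BMP4 arrays 1 and 4 held the highest value for all 15 (7 and 8 genes) and arrays 2 and 3 the lowest for all 15 (10 and 5), and for 13 of the 15 both arrays 1 and 4 lay above both arrays 2 and 3. In Neurosphere arrays 3 and 4 held all the highest values (7 and 8). These pairs of arrays were picked after their values were seen.

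The cell cycle genes gave a different order in 1 of the treatments. In LIF_NOG 16 of 17 cell cycle genes were highest on array 2 and 17 lowest on array 4, as for the sterol enzymes. In BMP4, by contrast, arrays 1 and 4 both lay under arrays 2 and 3 for 16 of the 17, while the sterol enzymes were higher on arrays 1 and 4. The mean level of the 15 sterol enzymes was 9.95, 9.26, 9.40 and 10.04 on BMP4 arrays 1 to 4, and that of the cell cycle genes 5.42, 6.38, 5.98 and 5.54. Some of these cell cycle levels lay near the dim end. Ccna2 was detected on 0 BMP4 arrays, Top2a and Foxm1 on 2, Aurkb, Rrm2 and Ccne2 on 3, and the others on all 4. On LIF_NOG arrays 1 to 4 these means were 9.22, 9.89, 9.25 and 8.74 against 7.54, 9.09, 8.49 and 7.18. The part of cell division in the sterol values was not tested.

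**Figure D4:**
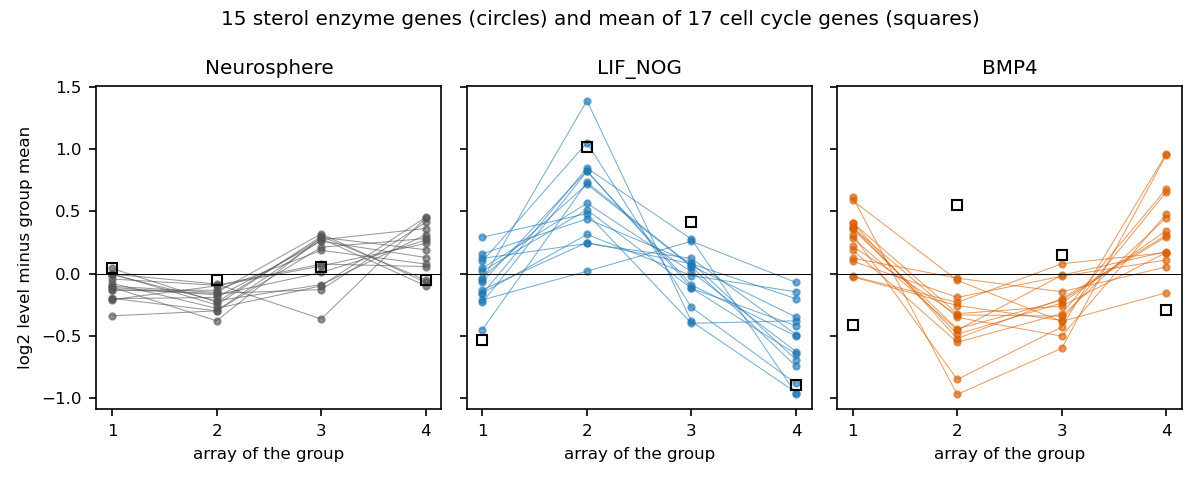
Level of 15 sterol enzyme genes (circles, 1 line a gene) and mean level of 17 cell cycle genes (squares) on arrays 1 to 4 of each group, as log2 distance from the mean over the 4 arrays; the lines join arrays of 1 group and mark no order. Circles and squares are both high on LIF_NOG 2 and low on LIF_NOG 4, whereas on BMP4 the circles are high on arrays 1 and 4 and the squares on arrays 2 and 3.

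Array LIF_NOG 2 therefore weighed on the counts. It held the highest LIF_NOG value for 27 of the 33 genes, against 33.0% of all genes. Over all 10785 genes it also held the lowest LIF_NOG value most often, for 3890 genes. The array thus stood apart beyond the 33. Without it 18 of the 33 were lower in LIF_NOG than in Neurosphere and 2 higher (19.4% and 20.9% of all genes), and 17 were higher in BMP4 than in LIF_NOG and 1 lower (21.5% and 25.4%). On omitting each of the 12 arrays in turn the number of lower genes in LIF_NOG ran from 6 to 18. Fdps, Lss, Tm7sf2, Srebf2, Stard4 and Elovl2 were lower on every omission. In BMP4 against Neurosphere 9 of the 10 higher calls (all but Pmvk) and 6 of the 7 lower calls (all but Stard4) held on every omission. In BMP4 against LIF_NOG 12 of the 13 higher calls (all but Cyp51) held, and of the lower ones Acly alone.

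With row order as a block, 12 genes were lower in LIF_NOG than in Neurosphere and 1 higher (15.7% and 15.9% of all genes). In BMP4 against Neurosphere 9 were then higher and 4 lower (21% and 22.4% of all genes), without Pmvk, Fdps, Lss and Stard4. In BMP4 against LIF_NOG 16 were higher and 0 lower by limma (15.2% and 16% of all genes), and 1 was lower at an unadjusted p under 0.05. Nsdhl, Insig1 and Stard4 were gained there and Mvk, Ebp and Acly lost. Within set A alone, with 3 arrays a group, Lss, Tm7sf2, Srebf2, Stard4 and Elovl2 were lower in LIF_NOG than in Neurosphere, 5 of the 33 genes, and 0 were higher by limma (6.77% and 8.92% of all genes). At an unadjusted limma p under 0.05, 11 were lower and 1 was higher there. All genes were not counted at that threshold, so these counts stand without a background. BMP4 could not be compared within a set, since each other group has 1 array in set B.

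Other genes of the same routes were counted from lists drawn up by function. Of 11 further genes of sterol synthesis and SREBP control, 1 was higher and 2 lower in LIF_NOG than in Neurosphere, 2 were higher and 4 lower in BMP4, and 3 were higher and 2 lower in BMP4 than in LIF_NOG. The shares were 9.09% higher and 18.2% lower in LIF_NOG against Neurosphere (16.6% and 16.5% of all genes), 18.2% and 36.4% in BMP4 (26.6% and 27.7%), and 27.3% and 18.2% in BMP4 against LIF_NOG (20.7% and 23.2%), each within 1 gene of 11 of the background. Nus1, a subunit of the enzyme that makes dolichol chains, was lower in both treatments (-0.92 ± 0.17 in LIF_NOG, adjusted p = 0.00118, and -0.94 ± 0.17 in BMP4, adjusted p = 0.000331). The erlin genes, whose products bind cholesterol in the endoplasmic reticulum, parted: Erlin1 fell by 1.18 in BMP4 (adjusted p = 2.03e-05) and by 0.59 in LIF_NOG (adjusted p = 0.011, but 0.101 within set A), while Erlin2 rose by 1.39 in BMP4 (adjusted p = 1.20e-06). Ggps1, which makes geranylgeranyl diphosphate, was higher in LIF_NOG than in Neurosphere (0.63, adjusted p = 0.023), a call lost without LIF_NOG 1 (0.52, adjusted p = 0.0784), LIF_NOG 4 or Neurosphere 1 or 4, and within set A. Ggps1 was lower in BMP4 than in LIF_NOG (-0.85, adjusted p = 0.00282), and Aacs, which activates acetoacetate for lipid synthesis, was higher (0.63, adjusted p = 0.00744).

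Of 17 genes of sterol transport, esterification and oxysterol formation, 7 were higher in LIF_NOG than in Neurosphere, 1 was lower (Scarb1, a lipoprotein receptor) and 9 did not pass. In BMP4 12 were higher, Scarb1 was lower and 4 did not pass. The higher genes made up 41.2% in LIF_NOG and 70.6% in BMP4, against 16.6% and 26.6% of all genes. Apoe, the main lipoprotein of astrocytes, was at a mean of 7.88 in Neurosphere, 13.09 in LIF_NOG and 14.36 in BMP4 (differences of 5.21 ± 0.34 and 6.48 ± 0.34, adjusted p = 3.72e-07 and 3.56e-09). Abcg1, a sterol exporter, was 5.65-fold higher in LIF_NOG (2.50 ± 0.46, adjusted p = 0.00107), and Lrp1, a receptor of lipoproteins, 2.36-fold (1.24 ± 0.16, adjusted p = 9.22e-05). In BMP4 the next largest changes after Apoe were in Cyp46a1, the cholesterol 24-hydroxylase (3.16 ± 0.17, 8.92-fold), and Cyp7b1, the oxysterol 7-alpha-hydroxylase (2.14 ± 0.35, 4.42-fold). Against LIF_NOG, Cyp46a1 (2.00), the lipoprotein receptor gene Vldlr (1.55) and Cyp7b1 (1.39) were the largest of 11 higher genes, with 2 lower. These shares were 64.7% and 11.8%, against 20.7% and 23.2% of all genes.

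Of 21 other genes of fatty acid synthesis and chain editing, 1 was higher and 2 lower in LIF_NOG, 11 were higher and 3 lower in BMP4, and 13 were higher and 2 lower in BMP4 than in LIF_NOG. The shares were 4.76% higher and 9.52% lower in LIF_NOG (16.6% and 16.5% of all genes), 52.4% and 14.3% in BMP4 (26.6% and 27.7%), and 61.9% and 9.52% in BMP4 against LIF_NOG (20.7% and 23.2%). Fads6, a desaturase-like gene, and Hacd4, a dehydratase of the elongation cycle, were not detected on any Neurosphere array and were at least 3.8-fold and at least 2.46-fold higher in BMP4 (adjusted p = 3.80e-07 and 2.47e-07). Lpcat3, which puts polyunsaturated chains into phospholipids, was 3.05-fold higher (1.61 ± 0.28, adjusted p = 0.0002). Acsl6, which activates long chains, was 2.26-fold higher in BMP4 than in LIF_NOG (1.18, adjusted p = 0.000427). In LIF_NOG the called genes were Acsl5 (-0.79, adjusted p = 0.0126), another such synthetase, Hacd1 (-0.55, adjusted p = 0.0112) and Hacd3 (0.45, adjusted p = 0.00765), both dehydratases. Within set A none of these 3 passed (adjusted p = 0.101, 0.167 and 0.107), and Hacd1 did not pass with arrays scaled to a common median (-0.47, adjusted p = 0.072).

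Of 18 genes of fatty acid oxidation, 2 were higher and 1 lower in LIF_NOG, 11 were higher and 1 lower in BMP4, and 8 were higher and 0 lower by limma in BMP4 than in LIF_NOG, where 1 was lower at an unadjusted p under 0.05. The shares were 11.1% higher and 5.56% lower in LIF_NOG (16.6% and 16.5% of all genes), 61.1% and 5.56% in BMP4 (26.6% and 27.7%), and 44.4% higher in BMP4 against LIF_NOG (20.7%). Pdk4, a kinase that turns pyruvate away from oxidation, was 2.29-fold higher in LIF_NOG (1.20 ± 0.16, adjusted p = 0.000124) and 6.32-fold higher in BMP4 (2.66 ± 0.16, adjusted p = 1.46e-08). The mitochondrial thiolase gene Acaa2 was higher in LIF_NOG (0.76, adjusted p = 0.00409, but 0.0973 within set A) and Hadha, of the trifunctional protein, lower (-0.56, adjusted p = 0.0211), the latter not without LIF_NOG 3 (-0.47) or Neurosphere 3, at adjusted p of up to 0.0685, nor with arrays scaled to a common median (-0.43, adjusted p = 0.108), with the mean of its probes (-0.29) or within set A. In BMP4 Cpt1c, a brain form of carnitine palmitoyltransferase 1 (1.43 ± 0.26), and Decr1, which handles unsaturated chains (1.32 ± 0.17), followed Pdk4, and Etfa (1.02) and Etfdh (0.97), which pass on the electrons, were higher than in LIF_NOG.

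Markers of other cell types were counted as well, and their part in the lipid gene results was not tested. Of all genes, 16.6% were higher and 16.5% lower in LIF_NOG than in Neurosphere, and 26.6% and 27.7% in BMP4. In BMP4 against LIF_NOG 20.7% of all genes were higher and 23.2% lower. Cell cycle genes were lower in both treatments (16 of 17 in each); Top2a, which untangles replicated DNA, was at a mean of 9.62 in Neurosphere, 8.22 in LIF_NOG and 5.06 in BMP4, and its LIF_NOG call was lost without Neurosphere 1 or 2 or LIF_NOG 1 or 4, without a detection filter (-1.40, adjusted p = 0.0654) and within set A. Of the 7 myelinating oligodendrocyte markers tested, cells that make much sterol for myelin, 5 were higher in LIF_NOG than in Neurosphere and 5 lower in BMP4 than in LIF_NOG. Each share was 71.4%. The mean level over the 12 such markers with a probe was 5.11 to 5.40 on Neurosphere, 6.13 to 6.46 on LIF_NOG and 4.89 to 5.21 on BMP4, with Mbp, the myelin basic protein gene, at means of 5.84, 7.83 and 5.07. Within LIF_NOG the mean of these markers was lowest on array 2 and highest on array 4, the reverse of the sterol enzymes. Of 7 oligodendrocyte progenitor markers 2 were lower in LIF_NOG and 5 in BMP4, with list means of 7.94 to 8.25, 7.63 to 8.24 and 6.58 to 6.65. The shares lower were 28.6% and 71.4%. Neuron markers (9 tested) were higher for 2 in LIF_NOG, with Dcx, of migrating neuroblasts, at 5.15, 8.32 and 5.31, and for 2 in BMP4 with 1 lower. The shares were 22.2% higher in LIF_NOG, and 22.2% higher and 11.1% lower in BMP4. Neural stem cell markers (10 tested) were higher for 3 and lower for 1 in LIF_NOG and higher for 2 and lower for 3 in BMP4, with Nes (nestin) at 9.39, 9.63 and 6.59. The shares were 30% and 10% in LIF_NOG and 20% and 30% in BMP4, the latter near those of all genes. The 6 microglia markers with a probe, Aif1 among them, were undetected on all arrays. Of 6 endothelial and mural markers 1 was lower in LIF_NOG, and in BMP4 1 was higher and 1 lower, with the endothelial gene Cldn5 at 4.79, 4.95 and 4.76, near the dim end. Each of these shares was 16.7%.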

How the data were processed

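Illumina mouse bead arrays were used for 12 samples, 4 a group. Per the file headers, the deposited raw table holds a signal intensity per probe, not normalized between arrays, and a detection p-value, both made before deposition. The authors' second deposited table holds processed intensity values, used as an alternative and to put rows in order. Its set B columns followed another row order and were matched to the raw rows by rank. As an alternative they are therefore not read by their deposited probe names. BeadStudio 3 and lumi 2.15.1 are named, without a role, per the submitters' processing notes.

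The signal column of Neurosphere 1 followed another row order (rank correlation 0.01 with the other columns). Its rows were matched by rank through 5 linking arrays, after which its correlation within the group was 0.916 to 0.928, and 46605 probes were aligned. The neqc function of limma 3.58.1 (offset 16) in R 4.3.3 removed background and normalized by quantiles, and groups were tested with lmFit, contrasts.fit and eBayes over all 12 arrays. Probes detected at p under 0.05 on at least 4 arrays with 1 gene symbol were kept (15356), and a gene was represented by its brightest probe (10785 genes). P-values were two-sided. Probe symbols come from the platform annotation. The fit was checked on simulated data. Tables were made with Python 3.11.15.

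Same-numbered samples did not deviate together in a way that pairs them (correlations from -0.05 to 0.26), so the fit has no block. The genes, lists and tests were chosen with earlier results of these data known. Every gene of the set with a kept probe was named, with the 3 called genes of largest change per other list and comparison and a fixed set of markers, of which Ccnb1 is not analysed here and another is not reported here. Alternatives were another background correction, scaling to a common median, the authors' values, other detection filters, the mean of probes, omission of each array, and blocks by replicate number and row order. No per-sample column was left unused (0 columns).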

Additional observations from a re-analysis of the deposited data

Results flagged for a closer look

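In 4 of the 99 sets of 4 arrays (33 genes in 3 groups), 1 array stood far from the other 3 of its group, by Dixon's test at the 95% level on the gap as a share of the group's range. Chance gives about 1 such set in 20. Fdps on Neurosphere 4 was at 13.18 against 12.61 to 12.64, a gap of 0.947 of the range. Elovl1 on LIF_NOG 2 was at 7.83 against 7.24 to 7.32, a gap of 0.872. Cyp51 on Neurosphere 3 was at 11.64 against 11.17 to 11.25, a gap of 0.835. Hmgcs1 on LIF_NOG 4 was at 14.05 against 14.66 to 14.78, a gap of 0.833.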

How the results depend on the processing

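No called gene of the set changed sign under any alternative run. Within row-order set A, 5 of the 33 genes and 1692 of all genes were called in LIF_NOG against Neurosphere, against 13 and 3566 in the full fit; that fit has 6 arrays in place of 12. On omitting each array in turn the called genes of the set ran from 7 to 20 in LIF_NOG against Neurosphere (20 without LIF_NOG 2), from 15 to 19 in BMP4 against Neurosphere and from 13 to 18 in BMP4 against LIF_NOG, and the calls over all genes from 2799 to 4351, from 5412 to 6171 and from 4214 to 5061. With the replicate number as a block, which does not pair the samples, 10, 16 and 16 genes of the set were called. Scaling arrays to one median, without quantiles, made 62.4% of the calls over all genes in LIF_NOG against Neurosphere higher, against 50.1%, with a median shift of 0.08, and ended the calls of Mvk, Mvd, Acss2 and Elovl6 there. Averaging the probes of a gene ended the calls of Lss (-0.59, adjusted p = 0.051), Cyp51 (-0.89, adjusted p = 0.063) and Acss2 (-0.35, adjusted p = 0.0653) in LIF_NOG and of Fads1 in BMP4 (0.20, adjusted p = 0.155). The authors' processed values ended the calls of Mvd (adjusted p = 0.0543), Cyp51 (0.0601) and Fads2 (0.058) in LIF_NOG, the last the sole higher one there, and of Mvk between BMP4 and LIF_NOG (0.0511). Testing all genes without a detection filter ended those of Mvd (adjusted p = 0.0714), Cyp51 (0.0826), Nsdhl (0.0509) and Fads2 (0.0551) in LIF_NOG and of Stard4 in BMP4 (0.0957). Fads1 gained calls in LIF_NOG and between BMP4 and LIF_NOG with the authors' values and with the other background correction. Signals near the top of the arrays (Hmgcs1, Scd2) and near background limit what these arrays can show.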
